A study of Homo sapiens with 4 samples.

Results

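The PIAS and SUMO genes described here are 9 genes of the SUMO cycle, namely the ligases PIAS1, PIAS2, PIAS3 and PIAS4, the modifiers SUMO2 and SUMO3, and the proteases SENP1, SENP2 and SENP6. Their poly(A) sites were measured by PAS-seq, a method that reads where polyadenylated RNA ends, in KYSE30 and TE-1, established human esophageal squamous cell carcinoma lines. In each line, 1 library came from cells kept in 20 mM l-lactate for 24 h and 1 from control cells that received PBS, to ask whether l-lactate affects alternative polyadenylation (APA). A member is a PAS cluster (PAC), a group of neighbouring cleavage sites, whose dominant site (the position with the most tags) lay on the same strand within the GENCODE 44 span of 1 of these genes. This gave 15 of the 17627 PACs of the series, in 8 of the 9 genes. PIAS1 was chosen by its change in distal 3′ UTR usage with l-lactate in both lines, so that change is given as a description with no test.

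The labels of both control samples name other cell lines, KYSE32 and TE-3, but the sample titles and the study's methods read KYSE30 and TE-1, and these names are kept. Depth was between 7174991 and 10393798 tags per library, and between 14810 and 15048 PACs were listed. Values are TPM, the tags of a PAC per 1000000 tags of its library, with no correction for transcript length. PACs made of a single position were listed only from about 3 TPM (lowest 3.07 to 3.10 over the libraries), so a PAC that is not listed may lie below this level and is counted as 0 in sums. Of 8 squamous epithelial markers, 5 were listed in both KYSE30 libraries (980 and 1156 TPM in sum) and 3 and 2 in the treated and control TE-1 libraries (224 and 275 TPM). KRT5 and KRT14 were listed in none, and SOX2, KRT6A and TP63 (by a site past its gene end), which KYSE30 expressed, were not listed in TE-1, where KRT17 made up most of the sum. Of the leukocyte, fibroblast and endothelial markers, only COL1A1 was listed, at 4.84 and 5.39 TPM in TE-1. With 1 library per condition and line, the 2 lines are the only repeats of the treatment, and nothing measures the spread between cultures of a line. All Wilson and exact intervals on tags cover counting error only.

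SUMO proteins are small modifiers that are conjugated to lysines of other proteins. They are activated by SAE1 and UBA2, placed on substrates with the help of E3 ligases such as the PIAS proteins, and removed by SENP proteases. PIAS proteins were first known as inhibitors of activated STAT transcription factors. APA changes which site ends a transcript and so how much of the 3′ UTR it carries. NUDT21, the 3′ end processing factor studied in this work, binds UGUA elements, while the poly(A) signal, most often AAUAAA, is bound by another complex.

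The sequences that end at the cleavage sites show how differently the sites of a gene are equipped. Each is the 30 bases of GRCh38 up to and including the dominant site, 5′ to 3′ on the transcribed strand and written as DNA, with the poly(A) signal in capitals (AATAAA, then ATTAAA, then any of 11 known variants, only on the transcribed strand). PIAS1 and SENP2 are shown because they have several sites in 1 3′ UTR, SUMO3 because its site usage separated the lines, and SENP1 because its dominant site moved.
PIAS1 proximal site, chr15:68187959-68187988, plus strand: ttttttagggaaaaaATTAAAagaaatgta
PIAS1 distal site, chr15:68191434-68191463, plus strand: tagatgtAATAAAagaaaagccttcagtta
SUMO3 proximal site, chr21:44806720-44806749, minus strand: gttatctttgttcaggtaaaatgagttgca
SUMO3 distal site, chr21:44805616-44805645, minus strand: aaacAGTAAAtatagtttggtattctgtct
SENP2 proximal site, chr3:185630132-185630161, plus strand: aatgtgggaaatgcaggatttattctgtga
SENP2 middle site, chr3:185631060-185631089, plus strand: ttttctgatgtAATAAAaggtggtctggca
SENP2 distal site, chr3:185633522-185633551, plus strand: atttaccAATAAAttcatctctttaattca
SENP1 upstream site, chr12:48043773-48043802, minus strand: tacaatttgaaAAGAAAactatttttttta
SENP1 downstream site, chr12:48043562-48043591, minus strand: tataggaAATAAAtagctttctatatatga

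Of the 15 member PACs, 10 held AATAAA within 50 nt upstream of the dominant site, against 66.4% of the PACs of the series, and 1 held ATTAAA only, the proximal site of PIAS1. The 4 without either signal included the proximal sites of SUMO3 and SENP2, which had no variant in these 50 nt. TGTA, the DNA form of the NUDT21 element, lay within 100 nt upstream of 8 of the 15 PACs, against 57.0% of all PACs. Both 3′ UTR sites of PIAS1 had it. At the proximal site 1 TGTA formed the last bases of the sequence shown, and at the distal site the nearer of 2 ended 22 nt upstream. None of the 3 sites of PIAS1 and none of the other members was followed by 7 or more A in 10 nt, a feature of 1.60% of all PACs. The proximal site of PIAS1 came closest to it with 6, as did the middle site of SENP2. These matches are a description of the letters in these windows.

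PIAS1 (ENSG00000033800.14), a SUMO E3 ligase, spans chr15:68054309-68198603 on the plus strand. Its proximal and distal sites lay 156 and 3631 nt into the 3′ UTR in exon 14 of the transcript PIAS1-201, so that use of the distal site adds 3475 nt. The proximal PAC had 10.9 TPM in treated and 10.4 TPM in control KYSE30 cells, and 9.33 and 7.41 TPM in TE-1. The distal PAC had 7.81 and 11.99 TPM in KYSE30 and 8.03 and 9.91 TPM in TE-1. In both lines the proximal value was above and the distal value below that of the control with l-lactate. The proximal log2 ratio to the control was 0.07 in KYSE30 (exact interval −0.40 to 0.54) and 0.33 in TE-1 (−0.14 to 0.80). In KYSE30 the proximal site had 78 treated and 77 control tags. The distal log2 ratio was −0.62 in KYSE30 (−1.13 to −0.12) and −0.30 in TE-1 (−0.77 to 0.15). All of these intervals but that of the distal site in KYSE30 include no change.

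Distal usage, the share of the gene's 3′ UTR tags at its most distal site among sites above 5 TPM, was 41.8% with l-lactate (56 of 134 tags, 95% Wilson interval 33.8% to 50.3%) and 53.6% in the control (89 of 166 tags, 46.0% to 61.0%) in KYSE30. In TE-1 it was 46.3% (68 of 147 tags, 38.4% to 54.3%) and 57.2% (103 of 180 tags, 49.9% to 64.2%). The distal site thus had the smaller share of tags with l-lactate, and the larger share in the control, in each line. The change was −11.8 percentage points in KYSE30 (95% Newcombe interval −22.7 to −0.459) and −11.0 in TE-1 (−21.5 to −0.0918), which is the change that chose the gene. Because these values chose it, the intervals give counting error only, and that they exclude 0 is no test of the change. A change of 10 points was taken as a call, which 9.16% of 1670 genes reached in KYSE30, 11.3% of 1678 in TE-1, and 2.41% of 1284 in the same direction in both lines. PIAS1 ranked 14th of the 17 genes shortened by this rule in both lines when ordered by the smaller change. Just inside the threshold was CSNK1E, at −10.2 and −13.1 points in KYSE30 and TE-1, and just outside it SNTB2, at −17.2 and −9.90 points.

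A further PIAS1 PAC lay at chr15:68198600-68198600, in exon 4 of a noncoding transcript of the gene, 7137 nt past the distal site. It was listed only in the KYSE30 control, with 25 tags or 3.37 TPM, close to the level from which such PACs were listed, and had CATAAA as its signal. When all PACs of the gene form the denominator, this PAC makes the KYSE30 change −4.81 points (95% Newcombe interval −15.5 to 6.14), under the call threshold, and leaves the TE-1 change as it was. Although it lies downstream of the distal site, it enters only the denominator there. With the same denominator the proximal share in KYSE30 was 58.2% with l-lactate and 40.3% in the control, a change of 17.9 points. The further PAC also enters the gene level. Summed over the PACs, PIAS1 had 18.7 TPM in treated and 25.7 TPM in control KYSE30 cells, and 17.4 and 17.3 TPM in TE-1. The KYSE30 control thus stood above the other 3 libraries. The log2 ratio of l-lactate to control was −0.46 in KYSE30 (exact 95% interval −0.79 to −0.14) and 0.00 in TE-1 (−0.32 to 0.33). The KYSE30 ratio takes in the further PAC, which gave 25 of the 191 control tags. In treated KYSE30 cells that PAC counts as 0 but may lie below the listing level. The 3′ UTR sites alone held 134 tags in treated and 166 in control KYSE30 cells. A ratio for these sites alone was not worked out, so its interval may include no change.

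The genes whose distal usage in the 4 libraries was nearest that of PIAS1, by the largest difference in any library, were RBM25 (3.03 points), ZNF134 (3.33 points), PCNX1 (4.06 points), PANK3 (4.94 points) and GALNT1 (5.76 points), of 1970 genes with a value in every library. RBM25 had 44.8% in treated and 51.5% in control KYSE30 cells, and 46.5% and 54.2% in TE-1. These genes were matched to PIAS1 on these same values, so a lower share with l-lactate follows largely from the choice.

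PIAS2 (ENSG00000078043.16), an E3 ligase known for isoforms with different C-terminal ends, spans chr18:46803218-46920160 on the minus strand. Its sites fell in 2 alternative last exons. The most upstream lay 29 nt into the 3′ UTR in exon 13 of PIAS2-201, and the others 1992 and 4045 nt into that in exon 14 of PIAS2-204. The PAC in exon 13 had 3.48 and 5.12 TPM with l-lactate and in the control of KYSE30, and 6.38 and 7.60 TPM in TE-1. The nearer PAC in exon 14 had 4.88 and 6.06 TPM in KYSE30 and 5.55 and 4.23 TPM in TE-1. The farther one stayed between 1.53 and 2.79 TPM and so below the 5 TPM needed to enter usage. All of these levels are low, with 11 to 79 tags per PAC and library.

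The usage of PIAS2 is thus a share between last exons rather than between lengths of 1 3′ UTR. The exon 14 site held 58.3% with l-lactate (35 of 60 tags) and 54.2% in the control (45 of 83 tags) in KYSE30, and 46.5% (47 of 101 tags) and 35.8% (44 of 123 tags) in TE-1. The change with l-lactate was 4.12 points in KYSE30 (95% Newcombe interval −12.2 to 19.9) and 10.8 points in TE-1 (−2.12 to 23.3). The TE-1 change passed 10 points, but its interval includes 0, and when the farther exon 14 site was taken as the distal one, with a minimum of 1 TPM, it was −3.25 points. Between the lines, the share was 15.1 points lower in TE-1 on average, a log2 ratio of exon 14 to exon 13 tags of −0.74 ± 0.20 (SE), with a limma adjusted p of 0.0553, so it was not called. Summed over its PACs, PIAS2 had 9.90 and 13.3 TPM with l-lactate and in the control of KYSE30 and 14.2 and 14.6 TPM in TE-1. Its level difference between the lines did not pass the test (log2 difference 0.30 ± 0.18, SE, limma adjusted p = 0.147). Here and below, level differences between the lines are on the log2(TPM + 1) scale, which understates those of low genes.

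PIAS3 (ENSG00000131788.16), an E3 ligase and inhibitor of STAT3, spans chr1:145848522-145859836 on the minus strand and had no PAC by the rule. Its PAC, at chr1:145848520-145848523, had its dominant site 1 nt past the annotated gene end, 928 nt after the start of the 3′ UTR. Taking sites up to 24 nt past a gene end, which was decided after this was seen, added this PAC and 1 of SUMO3, for 17 in all. The PIAS3 PAC had 88.9 and 92.7 TPM with l-lactate and in the control of KYSE30, and 35.5 and 33.2 TPM in TE-1. Both KYSE30 libraries were above both TE-1 libraries, with a log2 difference of TE-1 from KYSE30 of −1.38 ± 0.10 (SE, limma adjusted p = 8.0e-08). Its log2 ratio of l-lactate to control was −0.06 in KYSE30 (exact 95% interval −0.22 to 0.10) and 0.10 in TE-1 (−0.13 to 0.33).

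PIAS4 (ENSG00000105229.7), the remaining E3 ligase of the family, spans chr19:4007736-4039386 on the plus strand and had 1 PAC, which ended at the last base of the gene. It had 5.30 and 5.12 TPM with l-lactate and in the control of KYSE30, and 5.20 and 3.27 TPM in TE-1. Its mean of 4.72 TPM was below the minimum of 5 TPM for the limma fit, so it was not tested. The TE-1 control was the lowest library, and the log2 ratio of l-lactate to control there was 0.67 (exact 95% interval −0.01 to 1.36), against 0.05 (−0.64 to 0.74) in KYSE30.

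SUMO2 (ENSG00000188612.12), a modifier that forms chains on its substrates, spans chr17:75165586-75182959 on the minus strand. Its main PAC was a wide cluster at chr17:75167310-75168161, 852 nt, whose dominant site 612 nt into the 3′ UTR held 58.1% to 63.2% of its tags. This PAC had 590 and 537 TPM with l-lactate and in the control of KYSE30, and 559 and 547 TPM in TE-1. A second PAC of 1 position at the gene end, 2144 nt downstream, had 3.90 and 3.37 TPM in KYSE30, 3.78 TPM in TE-1 with l-lactate, and was missing from the list of the TE-1 control. It held at most 0.672% of the gene's tags. The gene level was 594 and 540 TPM in KYSE30 and 562 and 547 TPM in TE-1, and TE-1 differed from KYSE30 by a log2 of −0.03 ± 0.06 (SE, limma adjusted p = 0.677, 95% interval −0.17 to 0.11). With l-lactate the log2 ratio was 0.14 in KYSE30 (exact 95% interval 0.07 to 0.20) and 0.04 in TE-1 (−0.02 to 0.10). Both PACs also lie in an annotated intron of JPT1 on the same strand and were given to SUMO2, whose 3′ UTR holds them. SUMO2 has processed pseudogenes, and how reads that match several places were counted is not given in the sources used here.

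SUMO3 (ENSG00000184900.16), a close relative of SUMO2, spans chr21:44805617-44818779 on the minus strand. Its proximal PAC, 234 nt into the 3′ UTR, had 28.0 and 27.7 TPM with l-lactate and in the control of KYSE30, and 17.8 and 19.3 TPM in TE-1. Its distal PAC, at chr21:44805615-44806073, had its dominant site 1 nt past the gene end, 1104 nt downstream of the proximal one, and its most used position held only 24.3% to 29.5% of its tags. The distal PAC had 63.7 and 54.3 TPM in KYSE30 and 116 and 111 TPM in TE-1. The proximal site was thus lower, and the distal site higher, in both TE-1 libraries than in both KYSE30 libraries.

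Distal usage of SUMO3 was 69.5% with l-lactate (95% Wilson interval 65.8% to 72.9%) and 66.2% in the control (62.3% to 69.8%) in KYSE30, and 86.7% (84.6% to 88.5%) and 85.2% (83.2% to 87.0%) in TE-1. The lines differed by 18.1 points, a log2 ratio of distal to proximal tags of 1.50 ± 0.19 (SE, limma adjusted p = 0.0110). Of the 4 members in this fit SUMO3 was the 1 called, against 20.2% of 2162 genes with sites past a gene end taken. By the rule alone SUMO3 has a single 3′ UTR PAC and no usage. In that fit 0 of 3 members were called by limma, against 19.4% of 2075 genes, with PIAS2 at an unadjusted p of 0.0184. The changes with l-lactate were 3.28 points in KYSE30 (95% Newcombe interval −1.86 to 8.41) and 1.50 points in TE-1 (−1.26 to 4.22). The direction of the level difference turns with this PAC. The proximal PAC alone was lower in TE-1 (log2 difference −0.56 ± 0.14, SE, limma adjusted p = 0.00379), whereas the sum of both, 91.7 and 82.0 TPM in KYSE30 and 134 and 131 TPM in TE-1, was higher (0.60 ± 0.08, SE, limma adjusted p = 2.8e-05).

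SENP1 (ENSG00000079387.15), a nuclear protease that matures SUMO precursors and removes SUMO from substrates, spans chr12:48039784-48106079 on the minus strand. Its 1 PAC, at chr12:48043192-48043773, covered 582 nt of the 3′ UTR in exon 18 of SENP1-201. The PAC had 18.7 and 18.9 TPM with l-lactate and in the control of KYSE30, and 25.2 and 24.8 TPM in TE-1, where it was higher (log2 difference 0.39 ± 0.14, SE, limma adjusted p = 0.0258). Its dominant site was the downstream site shown above in 3 libraries and the upstream site, 211 nt closer to the stop codon, in KYSE30 with l-lactate. There the upstream site held 29.1% of the tags (39 of 134, 95% Wilson interval 22.1% to 37.3%), and in the KYSE30 control the downstream site held 28.6% (40 of 140, 21.7% to 36.5%). No site thus held more than about 30% of the tags in KYSE30. In TE-1 the downstream site held 40.8% with l-lactate and 34.9% in the control.

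SENP2 (ENSG00000163904.13), a protease found at the nuclear pore, spans chr3:185582496-185633551 on the plus strand and had 3 sites in the 3′ UTR of SENP2-201, 320, 1248 and 3710 nt from its start. The proximal PAC had 14.6 and 10.1 TPM with l-lactate and in the control of KYSE30, and 4.84 and 4.43 TPM in TE-1. The middle PAC had 11.6 and 15.1 TPM in KYSE30 and 2.13 and 3.75 TPM in TE-1. The distal PAC had 19.5 and 20.5 TPM in KYSE30 and 7.32 and 6.25 TPM in TE-1. All 3 were lower in TE-1, and the gene level, 45.7 and 45.7 TPM in KYSE30 and 14.3 and 14.4 TPM in TE-1, differed by a log2 of −1.60 ± 0.13 (SE, limma adjusted p = 9.4e-07).

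With l-lactate the level of SENP2 was close to that of the control in each line (log2 ratio 0.00, exact 95% interval −0.22 to 0.22, in KYSE30, and −0.01, −0.37 to 0.34, in TE-1), and so was its distal usage in KYSE30, at 42.7% and 44.8% (change −2.15 points, 95% Newcombe interval −9.62 to 5.35). The proximal and middle sites lay on opposite sides of their control shares. The share of the proximal site was 32.0% with l-lactate (105 of 328 tags) and 22.1% in the control (75 of 339 tags) in KYSE30, a change of 9.89 points (3.15 to 16.5). That of the middle site was 25.3% and 33.0% in KYSE30, a change of −7.73 points (−14.5 to −0.828), and 14.9% (18 of 121 tags) and 26.0% (39 of 150 tags) in TE-1, a change of −11.1 points (−20.3 to −1.36). In TE-1 the proximal share was 33.9% and 30.7%, a change of 3.22 points (−7.82 to 14.4). The distal share in TE-1, with sites under 5 TPM taken in, was 51.2% (62 of 121 tags) and 43.3% (65 of 150 tags), a change of 7.91 points (−3.99 to 19.5). These shares were looked at after the distal usage was known, and the intervals exclude 0 for the middle site in each line. In TE-1 the middle PAC, at 2.13 and 3.75 TPM, lay below the 5 TPM needed to enter usage. The log2 ratio of its own level to the control was −0.38 in KYSE30 (exact 95% interval −0.81 to 0.04) and −0.82 in TE-1 (−1.71 to 0.02), so both include 0. The share of all genes with such a change at a middle site was not worked out. The dominant position of the middle PAC lay 15 nt farther downstream in the TE-1 control than in the other libraries.

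SENP6 (ENSG00000112701.18), a protease that trims SUMO2 and SUMO3 chains, spans chr6:75601509-75718281 on the plus strand. Its 1 PAC, at chr6:75715682-75715907, had 9.06 and 13.6 TPM with l-lactate and in the control of KYSE30, and 4.37 and 3.08 TPM in TE-1. Both TE-1 libraries were lower (log2 difference −1.37 ± 0.25, SE, limma adjusted p = 4.6e-04). The log2 ratio of l-lactate to control was −0.59 in KYSE30 (65 and 101 tags, exact 95% interval −1.06 to −0.12) and 0.51 in TE-1 (37 and 32 tags, −0.22 to 1.23). The share of its dominant site, 313 nt into the 3′ UTR, was 64.6% with l-lactate (95% Wilson interval 52.5% to 75.1%) and 38.6% in the control (29.7% to 48.4%) in KYSE30, and 59.5% (43.5% to 73.7%) and 81.3% (64.7% to 91.1%) in TE-1.

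PIAS1, chosen on a change with l-lactate, was left out of the count of members tested for it. Of the other 6 genes in the limma fit (line and treatment as terms, 1 residual degree of freedom, shared across genes), 0 were called at an adjusted p of 0.05, against 0.0108% of 9290 genes (1 gene). At an unadjusted p under 0.05 there were 0 of the 6, against 969 of the 9290 genes. For the 6 genes adjusted p lay between 0.686 and 0.997 and log2 differences between −0.22 and 0.09. Their median was −0.03, against 0.02 over all genes. For SUMO2 the counting interval of the log2 ratio within a line reached at most 0.20.

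Between the lines, 4 of the 7 members in the fit were called, against 73.5% of 9290 genes, a share not above that of all genes. SENP1 was higher in TE-1 (36.8% of all genes were called higher) and SENP2, SENP6 and the proximal PAC of SUMO3 were lower (36.7% of all genes). With the sites past a gene end, 5 of 8 were called, against 73.8% of 9615 genes, with SUMO3 and SENP1 higher and PIAS3, SENP2 and SENP6 lower. PIAS1 was not called (log2 difference −0.32 ± 0.16, SE, limma adjusted p = 0.0944). The median size of the log2 difference was 0.39 over the 7 members and 0.64 over all genes. The error in these tests comes from how far the line difference varied between the treated and control pairs. It was mostly shared over all genes (9.34 of 10.3 degrees of freedom) and little of it was the gene's own. It does not measure cultures of a line.

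Other genes of the SUMO pathway were taken as a list of 19, of which 17 had a PAC and 15 were in the fit. In TE-1, 5 of the 15 were called higher and 7 lower, against 36.8% and 36.7% of 9290 genes. The median log2 difference of the 15 was −0.07, against 0.00 over all genes. The largest called differences were in DESI1, a deSUMOylating protease (1.54 ± 0.09, SE), SENP3 and SENP5, proteases of the nucleolus (1.31 ± 0.18 and −1.13 ± 0.10, SE), RANBP2, an E3 ligase of the nuclear pore (0.76 ± 0.09, SE), and NSMCE2, an E3 ligase of the SMC5/6 complex (−0.68 ± 0.13, SE). Their limma adjusted p lay between 6.7e-08 and 6.4e-04. Of the activating enzyme, SAE1 was lower in TE-1 (−0.51 ± 0.07, SE, limma adjusted p = 6.7e-05), while UBA2 was not called (0.12 ± 0.07, SE, limma adjusted p = 0.130). For l-lactate, limma called 0 of the 15, with adjusted p from 0.522, against 1 of 9290 genes. At an unadjusted p under 0.05 there were 0 of the 15, against 969 of the 9290 genes.

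Of 16 partners of the PIAS proteins and proteins of PML bodies, where many SUMO substrates gather, 12 were in the fit. In TE-1, 5 of these were called higher and 6 lower, against 36.8% and 36.7% of 9290 genes. RANGAP1 was not called (0.22 ± 0.09, SE, limma adjusted p = 0.0549). STAT5A was not listed in either KYSE30 library and had 45.9 and 35.7 TPM in TE-1, and STAT5B (log2 difference 2.01 ± 0.11, SE) was higher there. DAXX was higher in TE-1 (2.34 ± 0.19, SE) and SP100, a constituent of PML bodies, was lower (−1.38 ± 0.13, SE). For l-lactate, limma called 0 of the 12, with a lowest adjusted p of 0.583, against 1 of 9290 genes. At an unadjusted p under 0.05 there were 0 of the 12, against 969 of the 9290 genes.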

How the data were processed

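According to the study's methods, poly(A) sites were called with CAGEr, sites under 1 TPM were excluded, sites within 24 nt were joined into PACs, single sites under 3 TPM were removed and nearby PACs were joined further. The genome build in the submitters' processing notes is GRCh38.p14. The deposited values are RPM, which the authors name TPM: tags per 1000000 tags of a library. Tags were recovered by dividing each value by the smallest step of its library and rounding.

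PACs were placed on GENCODE 44 (same build) by the dominant site of the library with the highest TPM, and TPM was summed per gene. Levels, as log2(TPM + 1) for genes with a mean of at least 5 TPM, and the log2 ratio of distal to other 3′ UTR TPM (pseudocount 1) were fitted with limma on line and treatment over 4 libraries, with Benjamini-Hochberg adjustment, two-sided. A difference in usage between the lines was called at an adjusted p of 0.05 and 10 percentage points. The script was tested on simulated data. The members, lists and tests were chosen with earlier results of these data known. Of other genes, up to 5 per list with an adjusted p of at most 0.05 were named, ordered by size, with those needed to account for a list, and the 5 genes nearest PIAS1 in usage. Some genes of the lists are counted but not reported here by name or in the plot of line differences. Alternatives changed the pseudocount, filters, scaling, PACs taken, call size and measure of usage. SENP2 in TE-1 had 1 site above 5 TPM and no main usage value.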

Additional observations from a re-analysis of the deposited data

Results flagged for a closer look

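SENP6 levels moved in opposite directions with l-lactate in the lines, by a ratio to the control of 0.666 in KYSE30 and 1.42 in TE-1. The difference between the lines was not tested, and the TE-1 interval includes no change. The sites of PIAS3 and SUMO3 that fall 1 nt outside the annotated gene carried signal outside the main measurement. The PIAS3 site had 88.9 and 92.7 TPM with l-lactate and in the control of KYSE30 and 35.5 and 33.2 TPM in TE-1, and the SUMO3 site 63.7, 54.3, 116 and 111 TPM in the same order. In the whole series 501 PACs, or 2.84%, lay only past a gene end in this way.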

How the results depend on the processing

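The number of members called by level was 0 for l-lactate under every alternative run (pseudocounts of 0.5 and 5 TPM, no filter, TMM scaling, 3′ UTR PACs only, PACs listed in all libraries, and sites past a gene end) and 4 or 5 between the lines. With a pseudocount of 5 TPM PIAS1 passed between the lines (log2 −0.27, limma adjusted p = 0.0469). In that fit the spread shared across genes had 609 degrees of freedom, so the spread of PIAS1 itself counted little. With sites past the gene end SUMO3 turned from −0.56 to 0.60. For usage with l-lactate PIAS1 is left out of the counts. In KYSE30, 0 of 2 other members passed 10 points, against 9.16% of 1670 genes. Both moved by over 24 nt in mean cleavage position, as did 69.8% of the genes measured. That position is measured along the genome, so for PIAS2 it runs between alternative last exons and not along 1 3′ UTR. In TE-1, 1 of 1 (PIAS2) passed, against 11.3% of 1678 genes. With a minimum of 1 TPM 0 did, and PIAS2 turned to −3.25 points. With a minimum of 10 TPM (none measured), 20 points or Fisher's test added, 0 passed as well. Between the lines 0 were called on usage, against 19.4% of 2075 genes. With PACs listed in all libraries 1 was called (PIAS2, limma adjusted p = 0.00158), for which the share of all genes is not given here. Sites past the gene end gave 1 (SUMO3), against 20.2% of 2162 genes. By mean position 3 of 3 were called, against 83.4% of the genes. With PACs listed in all libraries the PIAS2 difference was −15.1 points, as in the main fit. The fit on these PACs took its spread from all genes together and none from PIAS2 itself. The count test planned on tags was not run: values came out as whole tags, but PACs under 8 to 11 tags are not listed, so the tables were kept as TPM. Leaving out a library leaves no residual degrees of freedom and was not run. No paired analysis was possible because each group has 1 library, beyond the line term already in the limma fit. Depth limits PIAS2, PIAS4 and SENP6, with 32 to 152 tags per gene and library. It also limits PIAS1 (134 to 191 tags), SENP1 in KYSE30 (134 and 140 tags) and SENP2 in TE-1 (121 and 150 tags).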
